A study of Mus musculus with 4 samples.

Results

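Dorsal root ganglion (DRG) macrophages with little or no Cd163, Mrc1 and Lyve1 RNA, and little RNA of a set of cell cycle genes, were examined by scRNA-seq. They were chosen by UMI counts, a UMI being 1 captured RNA molecule. A barcode was a member with 600 to 15000 UMIs, 500 to 4000 genes, under 10% mitochondrial UMIs, at least 5 UMIs of C1qa, C1qb and C1qc together, at least 1 of Aif1, Cd68 and Csf1r, at most 4 of Fabp7, at most 2 of the cycle genes Mki67, Top2a, Birc5, Cdk1, Ccnb1 and Cenpa, and at most 1 of Cd163, Mrc1 and Lyve1. These limits left 492 cells, of 6095 that passed the limits on UMIs, genes and mitochondrial share and of 6975 deposited barcodes. They are called Cd163/Mrc1 low cells here, and the 428 cells that met every limit but held 2 or more UMIs of the last 3 genes are called Cd163/Mrc1 cells. Cells within the limit on cycle genes are called non-cycling, though S phase genes outside the rule were not limited.

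The study compared ganglia of naïve mice (control) with ganglia taken 3 days after a crush of the sciatic nerve (injury), with 2 libraries each. All mice were C57BL/6 females of 8 to 12 weeks with no engineered allele, and cells of several mice were pooled per batch. Injured mice had isoflurane and the analgesic buprenorphine for surgery, and a sham operation for the naïve mice is not described in the sources used here. The sample labels name ganglion L4 and the methods L4 and L5, and live cells were sorted before loading. The labels number the second library of each condition, and the methods call the libraries biological replicates.

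Macrophages of peripheral ganglia clear debris, present antigen and release signals to neurons and glia. C1q genes and Csf1r, the receptor for the survival factor CSF1, mark most tissue macrophages, while the scavenger receptor Cd163, the mannose receptor Mrc1 and the hyaluronan receptor Lyve1 mark those that lie along vessels in many tissues. Macrophages of other origin, such as those recently derived from blood monocytes, often lack these 3 receptors and can carry the chemokine receptor Ccr2 and MHC class II.

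The members carried macrophage RNA beyond the genes of the rule, in 7 of 8 further identity genes. Fcgr1, an Fc receptor, was at 272 ± 49.4 CPM (UMIs per 1000000 of the summed cells; SD, n = 4 libraries), against 6.82 ± 4.77 in all other cells that were not gated as macrophages. C3ar1, a complement receptor, was at 404 ± 54.1 against 3.29 ± 1.42 CPM. Emr1, which encodes F4/80, was at 479 ± 53.7 against 7.17 ± 3.64 CPM. In these 3 genes and in Lyz2, Ptprc, Tyrobp and Fcer1g the lowest member library lay above the highest value of the other cells. Mertk, a receptor for the uptake of dying cells, overlapped, at 19.9 ± 3.47 against 15.6 ± 2.59 CPM. Csf1r itself was at 781 ± 67.0, Aif1 at 1116 ± 121 and C1qa at 6461 ± 659 CPM, which the rule fixed in part.

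The limit on Cd163, Mrc1 and Lyve1 cut through an unbroken run of counts. Just inside it were 296 cells with 0 UMIs and 196 with 1, and just outside it 122 with 2 and 83 with 3. Few cells lay near the other limits, with 5 members at the lowest C1q sum of 5 UMIs and 1 cell excluded at 4. At 2 cycle gene UMIs there were 10 members, and 6 cells were excluded at 3. No cell was excluded at 5 Fabp7 UMIs and 4 members had 4. The members are thus a range of these counts, which do not show whether they hold a type of their own, and shallow cells reach the limit more easily than deep ones. Median depth per cell was 3100, 3295, 4241 and 4581 UMIs in members of control replicates 1 and 2 and injury replicates 1 and 2, against 2822, 3156, 4585 and 4766 UMIs in Cd163/Mrc1 cells.

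There were 134 members in control replicate 1 (483262 UMIs when summed), 53 in control replicate 2 (192946), 251 in injury replicate 1 (1151935) and 54 in injury replicate 2 (269891). Members made up 10.3% (95% exact binomial interval 8.70 to 12.1) and 3.95% (2.97 to 5.14) of the cells of the control libraries. In the injury libraries they made up 10.6% (9.35 to 11.9) and 5.02% (3.79 to 6.50). Both libraries numbered 1 had more than both libraries numbered 2, whatever the condition. The mean share was 7.13% ± 4.49 (SD, n = 2) in control and 7.79% ± 3.92 in injury, a difference of 0.663 percentage points that was smaller than the spread (exact permutation test, two-sided, p = 0.667, where 0.33 is the smallest p that 2 against 2 libraries can give). Over other settings the difference ranged from −2.51 to 4.86 points, the highest with gates set after cells were thinned to 1000 UMIs. The intervals cover counting error only.

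**Figure D1:**
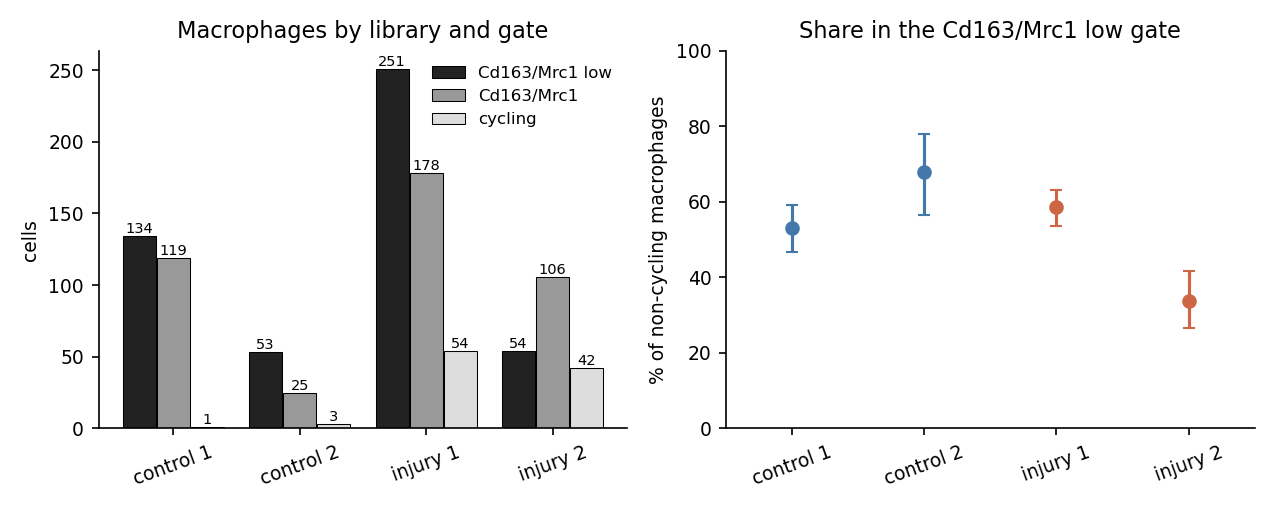
Left, number of cells per library in the Cd163/Mrc1 low gate, the Cd163/Mrc1 gate and among cycling macrophages, with the count on each bar. Right, Cd163/Mrc1 low cells as a percent of non-cycling macrophages, with 95% exact binomial intervals that cover counting error only; injury replicate 2 lies lowest, at 33.8%.

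Of the non-cycling macrophages, members were 53.0% and 67.9% in control and 58.5% and 33.8% in injury replicates 1 and 2. The groups overlapped, and the sign of the difference depended on the pair: injury was 5.54 percentage points higher among libraries numbered 1 and fell by 34.2 points among those numbered 2 (exact permutation test over all 4, p = 0.667). Cycling macrophages, which the rule leaves out, numbered 1 and 3 in control and 54 and 42 in injury. Of these, 1, 2, 36 and 13 cells would otherwise have met the limit on Cd163, Mrc1 and Lyve1.

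RNA of other cell types was present among the members and did not fall evenly over libraries. The summed level of a 12-gene Schwann cell list was 263 and 1000 CPM in control and 222 and 1452 CPM in injury replicates 1 and 2, led by Pmp22. A 12-gene fibroblast list summed to 2473, 2830, 1873 and 3820 CPM in the same order, led by Apod, and a 12-gene endothelial list to 70.4, 788, 15.6 and 77.8 CPM, led by Ly6c1. Libraries numbered 2 were higher in all 3 lists within their condition. A 14-gene satellite glia list summed to 805, 1358, 1125 and 1445 CPM, mostly from Dbi and Glul, and a 10-gene mural list to 364, 135, 3.47 and 359 CPM. The 12-gene neuron list reached 95.2, 290, 72.9 and 170 CPM, with Isl1 and Mrgprd at 0.

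Blood cell lists were low. The 12-gene T and NK cell list summed to 2.07, 62.2, 6.08 and 0 CPM in the members, with 4 of its genes at 0, Trbc1 among them. The 10-gene erythroid list summed to 8.28, 67.4, 33.0 and 226 CPM, led by Hbb-bs, and the 12-gene neutrophil list to 226, 171, 49.5 and 300 CPM, led by S100a8 and with Ly6g, Mmp8, Orm1 and Cxcr2 at 0. The 8-gene B cell list summed to 315, 249, 177 and 389 CPM, led by Ighm, while Ms4a1 and Pax5 were at 0. The 10-gene dendritic cell list summed to 76.6, 88.1, 46.9 and 148 CPM, led by Cd209a.

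Among the members, 73 of 492 (14.8%) held 5 or more UMIs of the fibroblast, Schwann, endothelial or mural list, against 88 of 428 (20.6%) Cd163/Mrc1 cells. By library the member share was 14.2% and 22.6% in control and 11.6% and 24.1% in injury. In Cd163/Mrc1 cells it was 7.56%, 32.0%, 17.4% and 37.7% in the same order, so control replicate 1 went the other way. No doublet caller was run, so that doublets could be removed only by the limits of the rule, such as those on UMIs, genes and Fabp7. Of all barcodes, 20 occurred in more than 1 library, 1 of them in 2 members.

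The most abundant transcripts of the members outside ribosomal and mitochondrial genes were Cd74, Tmsb4x, Apoe, Malat1, Ftl1, H2-Ab1, Lyz2, Fth1, H2-Aa and H2-Eb1. Cd74, the invariant chain that escorts MHC class II, averaged 37456 ± 16073 CPM over the 4 libraries. Apoe, a lipid carrier, averaged 28064 ± 6496 CPM and Lyz2, lysozyme, 11614 ± 3075 CPM. So 4 of the 10 most abundant transcripts belonged to antigen presentation by MHC class II.

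MHC class II molecules show peptides to CD4 T cells, and their genes are switched on together by the coactivator CIITA, which works through conserved X and Y boxes just upstream of each gene. The RefSeq table holds promoters of H2-Aa and H2-Eb1, which encode chains of the 2 classical mouse class II molecules, and of H2-DMb1, a chain of the H2-DM peptide exchanger, all 3 on chromosome 17 in build GRCm38.p6. They are shown because all 3 were called higher in members than in Cd163/Mrc1 cells, as given below, and their windows hold both boxes. H2-DMa, which encodes the other chain of the exchanger, was also called higher. It has 2 windows in the table, neither with the X core and 1 with a Y box, and they are not printed. No windows are given here for Cd74 and H2-Ab1, which were also called higher. The capitals mark matches to CTNGNAACT (a core of the X box) and GATTGG (the Y box), searched on both strands of 250 bases before to 50 after each start, and the runs show the last 150 bases before the start and the first 50 after it.
H2-Aa: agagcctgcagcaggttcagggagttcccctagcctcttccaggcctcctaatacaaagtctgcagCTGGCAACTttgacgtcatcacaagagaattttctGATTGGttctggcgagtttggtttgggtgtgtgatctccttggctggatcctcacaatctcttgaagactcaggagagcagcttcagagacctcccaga
H2-Eb1: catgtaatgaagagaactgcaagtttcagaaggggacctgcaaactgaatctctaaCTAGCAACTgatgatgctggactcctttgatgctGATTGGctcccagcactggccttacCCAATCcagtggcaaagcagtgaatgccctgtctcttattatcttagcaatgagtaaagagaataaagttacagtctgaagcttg
H2-DMb1: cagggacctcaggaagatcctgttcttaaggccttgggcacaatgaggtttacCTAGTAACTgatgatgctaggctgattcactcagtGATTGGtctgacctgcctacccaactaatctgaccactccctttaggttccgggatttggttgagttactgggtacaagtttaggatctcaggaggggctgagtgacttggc

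The H2-Aa run is chr17:34287774-34287973 on the minus strand, the H2-Eb1 run chr17:34305717-34305916 and the H2-DMb1 run chr17:34153041-34153240, both on the plus strand. The X core began 84, 94 and 97 bases and the nearest Y box after it 49, 60 and 62 bases before the start of H2-Aa, H2-Eb1 and H2-DMb1. H2-Eb1 held another match to the Y box on the minus strand. Of 32851 promoters in the table, 4.1% held the X core, 16.1% the Y box and 0.694% both. The printed promoters were chosen partly for holding both boxes, so these shares cannot show whether the boxes are enriched in genes called higher. A match describes letters in these windows and no factor was measured.

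Whether these cells differed from Cd163/Mrc1 macrophages of the same ganglia was tested on summed UMIs per library and gate, with library as a block. Of 4291 genes tested outside the 16 genes of the rule, 193 (4.5%) were higher and 149 (3.47%) lower in Cd163/Mrc1 low cells (edgeR quasi-likelihood test, Benjamini-Hochberg adjusted p under 0.05). Genes that go with Cd163, Mrc1 or Lyve1 from cell to cell are separated by the same limit, so these calls describe the 2 sides of it and are no independent evidence for a type. Leaving out injury replicate 1, which has the largest summed member profile, left 80 and 64 calls.

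Genes of resident and perivascular macrophages were lower in the members. Of 16 tested members of that 20-gene list, 15 fell and none rose, with a median log2 difference of −1.27 against 0.01 over all tested genes. Sepp1, a selenium carrier, was at 2558 and 3016 CPM in control and 2106 and 2382 CPM in injury, against 5086, 4979, 3982 and 5487 CPM in Cd163/Mrc1 cells. Every member library lay below every Cd163/Mrc1 library, and the log2 difference was −0.89 ± 0.09 (SE; adjusted p = 7.24e-05).

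Pf4, a chemokine of this list, was at 1732, 1249, 1433 and 1093 CPM in members and at 5089, 2874, 3768 and 3153 CPM in Cd163/Mrc1 cells. Folr2, a folate receptor, was at 26.9, 20.7, 19.97 and 0 CPM against 116, 134, 128 and 144 CPM. Both fell in all 4 libraries, Pf4 by 1.35 ± 0.09 and Folr2 by 2.70 ± 0.31 on the log2 scale (adjusted p = 5.19e-06 and 0.000193). F13a1, a clotting factor subunit, fell by 1.94 ± 0.14 (adjusted p = 7.95e-06) and Gas6, a ligand for receptors that take up dying cells, by 1.82 ± 0.18 (adjusted p = 7.24e-05). Cbr2, a carbonyl reductase, fell by 2.04, the scavenger receptor Stab1 by 1.38, the growth factor Igf1 by 1.40 and the transcription factor Maf by 0.99. Igf1 and Maf did not pass among cells with 0 UMIs of Ccr2, Ly6c2 and Cd209a (−0.77 and −0.71, adjusted p = 0.0614 and 0.0572). That restriction kept 60 and 24 members in control and 98 and 17 in injury replicates 1 and 2. It kept 88, 16, 118 and 77 Cd163/Mrc1 cells in the same order. The part of the smaller cell number in calls lost under it, here and below, was not tested.

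The other genes of the 12 with the largest decreases were Ccl24, Stard8, Itsn1, Vcam1, Ccl8, Cd38, Nxpe5 and Npl, with log2 differences from −2.25 to −1.57. Among cells with 0 UMIs of Ccr2, Ly6c2 and Cd209a, Ccl24 (−0.97, adjusted p = 0.0783), Cd38 (−0.89, 0.161) and Npl (−1.06, 0.135) did not pass, nor did Cd38 and Npl without injury replicate 1 (adjusted p = 0.0772 and 0.109). Of the monocyte-attracting chemokines, Ccl8 fell by 1.78, Ccl7 by 1.25, Ccl12 by 0.72 and Ccl2 by 0.71. Among cells with 0 UMIs of Ccr2, Ly6c2 and Cd209a the differences were −0.90 for Ccl8 and −0.50 for Ccl12, and neither passed (adjusted p = 0.352 and 0.223). Ccl8 was unsteady between libraries, at 586, 20.7, 337 and 130 CPM in members against 806, 267, 1398 and 1322 CPM. Of 16 tested chemokines and chemokine receptors, 4 rose and 5 fell, and the median of −0.07 lay close to that of all genes.

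**Figure D2:**
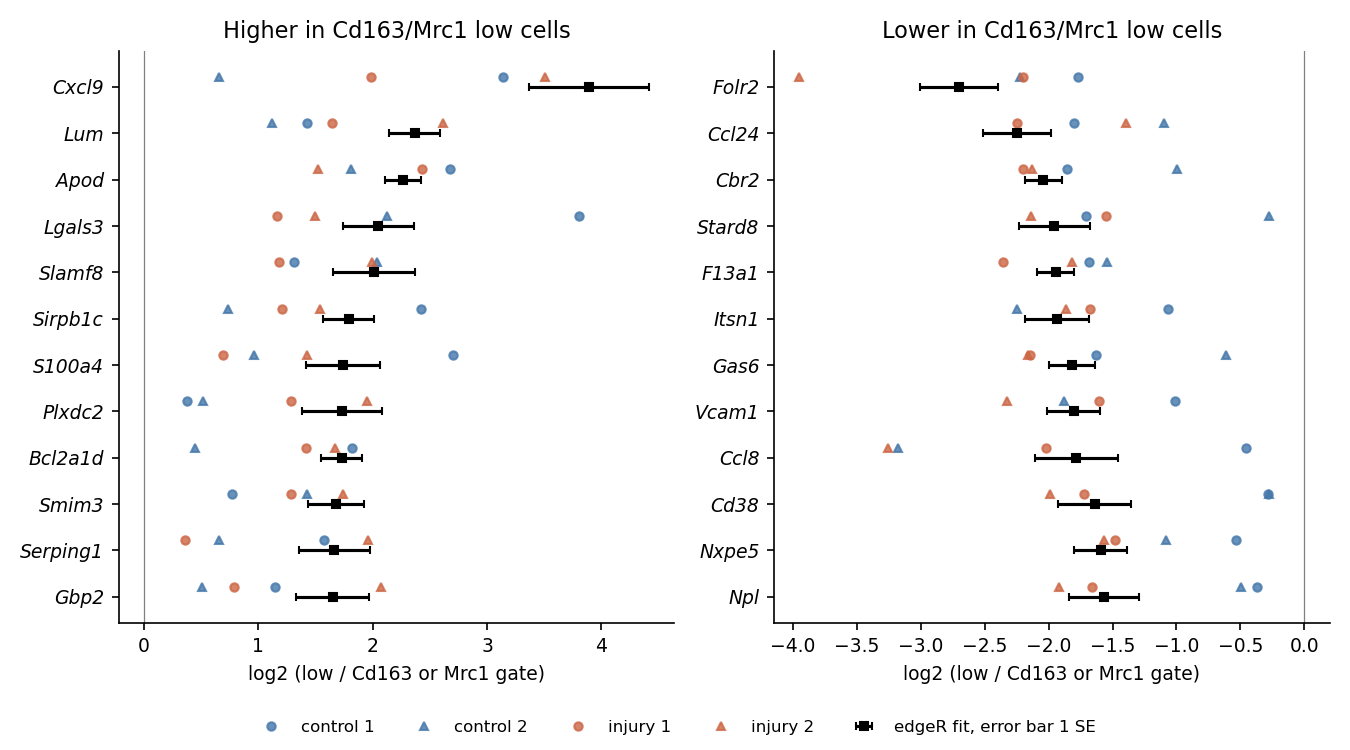
The 12 genes with the largest called increase (left) and decrease (right) in Cd163/Mrc1 low against Cd163/Mrc1 cells. Black squares are the fitted log2 difference with 1 SE, and coloured points are the log2 ratio of CPM + 10 within each of the 4 libraries (circles, replicate 1; triangles, replicate 2; blue, control; orange, injury). All points of a gene lie on one side of 0, since the genes were named for that.

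Genes of MHC class II were higher in the members. All 6 tested of 10 listed rose, with a median log2 difference of 0.98 against 0.01 over all tested genes. Cd74 was at 59672 and 38622 CPM in control and 27609 and 23921 CPM in injury, against 45042, 36705, 12142 and 6402 CPM in Cd163/Mrc1 cells. It was higher in members in 4 of 4 libraries, by 0.96 ± 0.23 (adjusted p = 0.0177), and the gap was narrow in control replicate 2. H2-Aa rose by 0.99, H2-Ab1 by 1.03, H2-Eb1 by 1.04, H2-DMa by 0.70 and H2-DMb1 by 0.86 (adjusted p from 0.000603 to 0.0221). Without injury replicate 1, Cd74, H2-Ab1 and H2-Aa no longer passed (adjusted p = 0.0772, 0.0772 and 0.0578). Among cells with 0 UMIs of Ccr2, Ly6c2 and Cd209a the differences of Cd74, H2-Ab1, H2-Aa, H2-Eb1 and H2-DMa were 0.95, 1.03, 0.95, 1.07 and 0.56, and none of these 5 passed (adjusted p = 0.0693, 0.0818, 0.0916, 0.0614 and 0.1445).

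Ccr2, the receptor that brings monocytes into tissue, was at 499, 492, 408 and 497 CPM in members and at 239.9, 234, 242 and 204 CPM in Cd163/Mrc1 cells. The 2 sets of libraries did not overlap, and the log2 difference was 1.09 ± 0.12 (adjusted p = 0.000187). A Ccr2 UMI was found in 58.9% of members and 28.3% of Cd163/Mrc1 cells, and in 0.338% of 888 barcodes led by satellite glial RNA, which should lack it (median depths 3775, 4066.5 and 4515.5 UMIs). With every cell thinned to 1000 UMIs the shares were 31.1%, 14.5% and 0.113%. By library the thinned share in members was 28.4% and 37.7% in control and 28.7% and 42.6% in injury.

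Of the 16-gene monocyte list 4 genes were tested and 3 rose: Ccr2, S100a4 (1.74) and S100a6 (0.99, higher in 3 of 4 libraries), both small calcium-binding proteins. The list summed to 1517, 1140, 843 and 1234 CPM in members against 561, 713, 511 and 507 CPM in Cd163/Mrc1 cells. Cd209a, a lectin of monocyte-derived dendritic cells and the only tested gene of the dendritic cell list, rose by 1.93 (adjusted p = 0.00655), but not without injury replicate 2 (1.25, adjusted p = 0.124). Its UMIs came from 5, 2, 7 and 3 members and from 5, 1, 3 and 5 Cd163/Mrc1 cells. In injury replicate 2, 1 cell held 74.2% of the members' UMIs. Flt3, Xcr1 and the other dendritic cell genes were too low to test. In the lists of other cell types, 1 of 4 satellite glia genes (Glul) and the 1 tested endothelial gene (Egfl7) fell, and no tested Schwann, mural, neuron, neutrophil, B cell or erythroid gene passed. Restricting both gates to cells with 0 UMIs of Ccr2, Ly6c2 and Cd209a left 38 genes higher and 33 lower, with fewer cells in each gate and library. Those that no longer passed included, beside genes already given, S100a6, Il1b, Tnf, Ccl3, Ccl4, Vim, Tmem119, Olfml3, Lgmn, Ctsb, Cd63, Fcgr3 and H2afz. In the restricted cells the differences of Tnf, Ccl3, Ccl4 and Olfml3 were 0.98, 0.77, 0.82 and 0.70, no smaller than in all cells. Those of Il1b, S100a6, Vim and Tmem119 were 1.08, 0.91, 0.74 and 0.785. Those of Lgmn, Ctsb, Cd63, Fcgr3 and H2afz were −0.325, −0.48, −0.32, −0.35 and 0.09.

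Inflammatory genes were partly higher. Of 14 tested genes of the cytokine and NF-kB list, 5 rose and none fell, with a median of 0.37. Il1b, which encodes interleukin-1β, was at 1761, 384, 2110 and 411 CPM in members against 1040, 223, 915 and 126 CPM, a log2 difference of 1.18 ± 0.14 (adjusted p = 0.000286). Its level was higher in libraries numbered 1 than in those numbered 2 in both conditions and gates, a gap larger than that between gates. Tnf rose by 0.86, the inflammasome sensor Nlrp3 by 1.04, the interleukin-1 antagonist Il1rn by 1.36 and the receptor Tlr2 by 0.62. With cells thinned to 1000 UMIs Tnf had a similar difference and did not pass (0.81, adjusted p = 0.0817). Among the chemokines Ccl3 rose by 0.61, Ccl4 by 0.64, Cxcl16 by 0.82 and Ccl5 by 4.29, the last in 3 of 4 libraries. Ccl5 did not pass with DESeq2 (3.00, adjusted p = 0.138), and 1 cell held 87.7% of its member UMIs in control replicate 2.

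Lgals3, a galectin of phagocytes, was at 693, 228, 428 and 278 CPM in members against 40.4, 44.6, 186 and 92.0 CPM, and rose by 2.05 ± 0.31 (adjusted p = 0.0012). Clec7a (ENSMUSG00000079293), the receptor for fungal β-glucan, rose by 1.5 and the filament protein Vim by 1.04. Of 21 tested genes of the lipid-associated and phagocyte activation list, 8 rose and 4 fell, the latter being the cathepsins Ctsb and Ctsl, the lysosomal Cd63 and the scavenger receptor Msr1. Apoe differed by −0.35 and did not pass (adjusted p = 0.0677). It was called lower under 4 alternatives, with log2 differences from −0.54 to −0.37 (adjusted p from 0.0194 to 0.0398), and was at 0.017 among cells with 0 UMIs of Ccr2, Ly6c2 and Cd209a.

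Microglia-like genes, a list of genes typical of brain macrophages, divided: 6 of 19 tested rose and 4 fell, with a median of −0.03. Tmem119, a membrane protein of microglia, was at 97.3, 104, 354 and 322 CPM in members against 53.9, 100.3, 181 and 182 CPM, and rose by 0.93 ± 0.14 (adjusted p = 0.0012). Fcrls was lower in every library, at 658, 461, 1541 and 1467 CPM against 1596, 1103, 2743 and 2695 CPM, and fell by 0.95 ± 0.10 (adjusted p = 0.000187). Olfml3 rose by 0.58, while the protease Lgmn fell by 0.44. Without injury replicate 1, Tmem119 (adjusted p = 0.0529) and Olfml3 (0.182) no longer passed, and Olfml3 lost its call under 9 alternatives, DESeq2 (adjusted p = 0.281), thinned cells (0.36, adjusted p = 0.461) and leaving out injury replicate 2 (adjusted p = 0.242) among them.

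Other lists were described in the same way, beside 4.5% called higher and 3.47% called lower over all tested genes. A list with 1 call is not read as a result about that list. Of 12 tested Fc and scavenger receptor genes 6 fell and 1 rose (median −0.32), and Fcgr3 was at 894, 689, 972 and 871 CPM against 1297, 1214, 1350 and 1313 CPM. Of 18 lysosomal genes 4 rose and 6 fell, with Psap and Ctss among those higher and Ctsb, Lamp1 and Hexa among those lower. Ctss did not pass without injury replicate 1 (0.47, adjusted p = 0.0803). Of 8 complement genes beyond C1q 2 rose and 3 fell. Of 7 tested identity genes outside the rule 2 fell, Fcgr1 by 0.42 and Emr1 by 0.40. Glycolysis genes had 11 of 11 log2 differences above 0 (median 0.28) but no call, and the 20 immediate early and stress genes had no call either (median −0.06). Of 10 MHC class I genes 1 rose (Psmb8), of 17 interferon response genes 2 rose (Isg15 and Gbp2, the latter not among cells with 0 Fabp7 UMIs, with 0.76 and adjusted p = 0.285, and with 52.2% to 65.6% of its member UMIs in 1 cell in 3 of 4 libraries), and of 12 tested S phase genes outside the rule 2 rose (H2afz and Tubb5), H2afz with a difference of 0.09 (adjusted p = 0.885) among cells with 0 UMIs of Ccr2, Ly6c2 and Cd209a. Of 13 lipid handling genes 1 rose and 2 fell, of 9 growth factor genes 2 fell (Grn and Igf1), and of 14 transcription factor genes 1 fell (Maf).

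Of 7 tested fibroblast genes 3 were called higher, but rested on few cells. Apod was at 1515, 1316, 1237 and 1012 CPM in members against 229, 368, 222 and 346 CPM in Cd163/Mrc1 cells, a log2 difference of 2.27 ± 0.16 (adjusted p = 5.66e-06). A single cell held 80.5%, 90.6%, 59.7% and 75.5% of the members' Apod UMIs in the 4 libraries, and a smaller share of cells had an Apod UMI among members (40.9%) than among Cd163/Mrc1 cells (49.8%). Within control replicate 1 that order was reversed, with 66 of 134 members against 55 of 119 Cd163/Mrc1 cells. Lum (2.37) and Dcn (1.40), a pair of collagen-binding proteoglycans, were likewise concentrated, with 49.0% to 87.6% and 43.8% to 61.5% of their UMIs in 1 cell per library. Without the cells that held 5 or more UMIs of the fibroblast, Schwann, endothelial or mural lists the log2 difference of Apod was −0.22 (adjusted p = 0.568) and that of Dcn −0.06 (adjusted p = 0.941). Cxcl9, at 3.89 the largest increase among the 12 genes named for size, was likewise in few cells, with 100% of its UMIs in injury replicate 2 in 1 cell. The counts of calls moved little without those cells, to 199 higher and 152 lower, 168 and 126 of them shared with the calls above.

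Because the limit cuts a range, levels were also read along it, summing the libraries of a condition by the cells' UMIs of Cd163, Mrc1 and Lyve1. Pf4 in control cells was at 1171 CPM with 0 UMIs (107 cells), 2269 with 1 (80), 3152 with 2 (48), 5123 with 3 to 5 (73) and 5782 with 6 or more (23). In injury cells it was at 1036, 1882, 2288, 3587 and 4454 CPM (189, 116, 74, 119 and 91 cells). The level climbed on both sides of the limit of 1 UMI, although in injury replicate 2 alone it was at 1150 and 1032 CPM with 0 and 1 UMIs. Ccr2 was at 618, 303, 385, 199 and 117 CPM in control and at 436, 407, 478, 174 and 96.1 CPM in injury cells. Tmem119 in injury cells was at 389.7, 284, 350, 153 and 84.1 CPM, and Il1b at 2040, 1399, 1105, 622 and 240 CPM. The mix of libraries shifted along the bins, as injury replicate 2, low in Il1b, gave 30 of 189 injury cells with 0 UMIs and 41 of 91 with 6 or more. Within injury replicate 1 Il1b was at 2341, 1722, 1536, 833 and 429.8 CPM, and within injury replicate 2 at 486, 331, 192, 212.5 and 13.2 CPM.

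**Figure D3:**
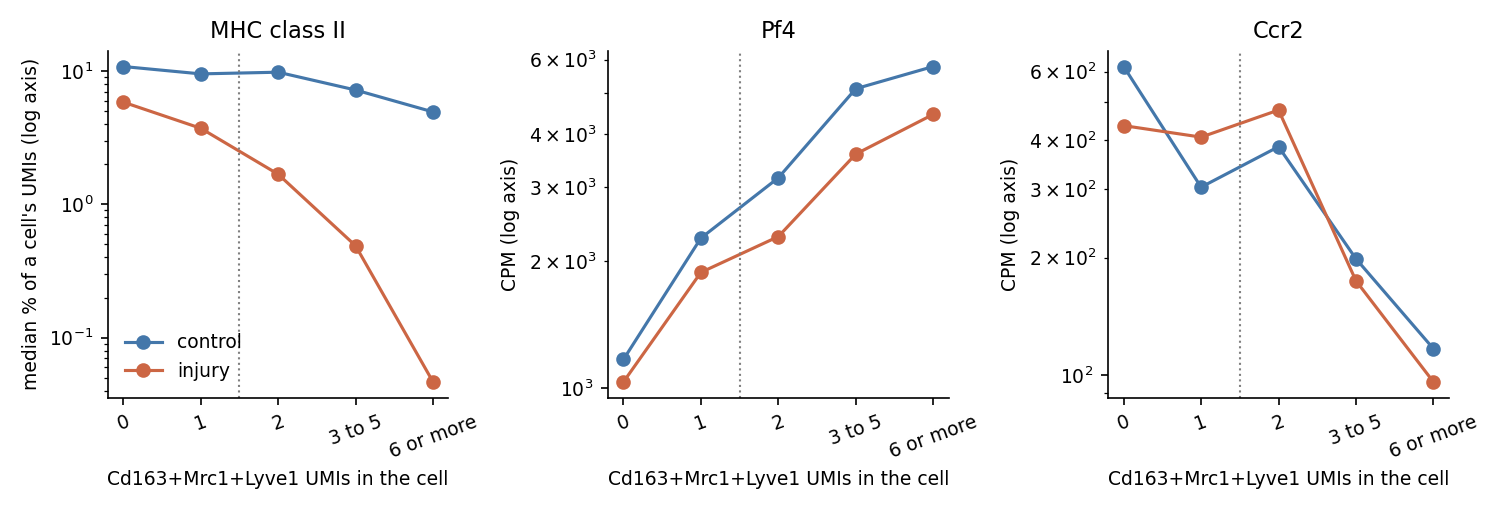
Levels in non-cycling macrophages by the number of Cd163, Mrc1 and Lyve1 UMIs in the cell, for control (blue) and injury (orange) libraries summed; the dotted line is the limit of the Cd163/Mrc1 low gate. Left, median percent of a cell's UMIs in H2-Aa, H2-Ab1, H2-Eb1 and Cd74; middle and right, Pf4 and Ccr2 in CPM; all vertical axes are logarithmic and no error is drawn. MHC class II in injury cells runs from 5.85% to 0.0466%.

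The share of a cell's UMIs in H2-Aa, H2-Ab1, H2-Eb1 and Cd74 fell along the range, in the summed libraries more steeply after injury. Its median was 10.8%, 9.52%, 9.80%, 7.20% and 4.94% in control cells and 5.85%, 3.72%, 1.68%, 0.489% and 0.0466% in injury cells with 0, 1, 2, 3 to 5 and 6 or more UMIs of the 3 genes. Median depths of these 5 bins ran from 2564 to 3811 UMIs in control and from 4297 to 5269 in injury cells. Within injury replicate 1 the median was 6.11%, 3.72%, 2.24%, 0.792% and 0.0605%, and within injury replicate 2 it was 4.34%, 4.004%, 1.18%, 0.119% and 0.0380%. In control replicate 1 it was 11.9%, 11.5%, 10.7%, 7.28% and 5.21%, and in control replicate 2 it was 8.84%, 6.37%, 8.79%, 6.25% and 0.242%, the last from 2 cells. These are descriptions with no test.

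Members varied widely among themselves in MHC class II. The median share was 11.8% and 7.80% in control and 4.93% and 4.004% in injury replicates 1 and 2, and the 10th and 90th percentiles were 3.31% and 16.2% in control replicate 1 and 0.162% and 12.1% in injury replicate 1. Cells under 1% made up 5.22% and 13.2% of control and 23.5% and 33.3% of injury members. In Cd163/Mrc1 cells the same share was 9.24%, 16.0%, 55.1% and 73.6%. Members with a Ccr2 UMI had the higher median in each library: 13.1% against 8.84%, 9.77% against 4.79%, 6.94% against 3.17% and 6.12% against 0.486%. Their depth was higher too, most so in injury replicate 1 (4791 against 2938.5 UMIs), and its part in the difference was not tested.

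Whether the members changed after nerve injury was tested between the 2 control and the 2 injury libraries. Of 4003 genes tested, 0 were higher and 0 lower at an adjusted p under 0.05 (0.0% in each direction; edgeR quasi-likelihood test), the smallest adjusted p was 0.51, and 232 genes (5.80%) had an unadjusted p under 0.05. DESeq2 called 0 higher and 2 lower (Hspa1a and Plac8), and edgeR with no filter on low counts 13 higher and 46 lower. In 25.0% of tested genes both injury libraries lay above both control libraries, and in 12.7% both lay below. Dropping control replicate 2 gave 35 higher and 107 lower genes and dropping injury replicate 1 gave 9 and 3, so the count of 0 depended on the libraries used. With the replicate number as a block, 9 genes were called higher, Tmem119, Lgals1 and Fcrls among them (adjusted p = 0.00483, 0.0122 and 0.0272), and 18 lower, Ccl5, Ly6c2 and Hspa1a among them (8.56e-07, 0.00155 and 0.005), and the study speaks of biologically independent experiments and of batches of pooled mice without saying which libraries they join. The adjusted p that follow are with the filter and without that block. The values that follow are descriptions of genes with the smallest p among those of average log2 CPM of 5 or more whose libraries did not overlap.

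Tmem119 was at 97.3 and 104 CPM in control and 354 and 322 CPM in injury members (log2 difference 1.65 ± 0.26, adjusted p = 0.51). Lgals1, a galectin, was at 490.4 and 612 CPM against 1794 and 1604 CPM (1.53 ± 0.27, adjusted p = 0.581). Fcrls was at 658 and 461 CPM against 1541 and 1467 CPM (1.31 ± 0.31, adjusted p = 0.703). In each both injury libraries lay well above both control libraries and close together. The other genes with higher values were Gtf2h2, Ntpcr, Olfml3, Kcnn4, Rtcb, Ms4a6d and Nme1, with log2 differences from 0.96 to 2.22.

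In the microglia-like list both injury libraries lay above both control libraries in 11 of 19 tested genes, and below in 3, with a median of 0.58 against 0.01 over all genes. Olfml3, a secreted glycoprotein of microglia, was at 114 and 119 CPM in control and 263 and 274 CPM in injury. Lgmn was at 1459 and 1306 CPM against 2408 and 2297 CPM. Of 18 lysosomal genes 10 lay above and 2 below (median 0.16). Grn, the precursor of granulins, was at 522 and 559.7 CPM against 886 and 1023 CPM, and Plin2, a coat protein of lipid droplets, at 169.7 and 109 CPM against 351 and 267 CPM. None of these genes passed the adjusted threshold.

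Of 7 tested genes of the monocyte list, both injury libraries lay below both control libraries in 2 and above in 1, with a median of −0.84 and no call. Ly6c2, a surface marker of inflammatory monocytes, was at 84.8 and 67.4 CPM in control and 3.47 and 11.1 CPM in injury (−3.93 ± 0.55, adjusted p = 0.51). Its control UMIs came from 8 cells of replicate 1 and from 1 cell of replicate 2. Plac8 was at 161 and 77.7 CPM against 9.55 and 22.2 CPM, from 10 and 1 control cells. Ccl5, a chemokine of T cells and some myeloid cells, was at 1126 and 295 CPM against 45.1 and 0 CPM, and 21 cells of control replicate 1 held most of it. Ccr2 itself was similar in all 4 libraries, with a log2 difference of −0.25 (adjusted p = 0.941).

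Hspa1a, a heat shock protein whose near-identical copy Hspa1b can split its reads, was at 1724 and 1912 CPM in control and 633 and 615 CPM in injury (−1.64 ± 0.26, adjusted p = 0.51). The 20 immediate early and stress genes all had log2 differences below 0, with a median of −0.75, but 7 of them lay below control in both libraries and control replicate 1 stood apart. Their sum was 30484 CPM in control replicate 1, 15315 in control replicate 2 and 17027 and 12305 in injury replicates 1 and 2. Fos, for example, was at 4910 and 2089 CPM in control and 2426 and 2479 CPM in injury, and its direction turned without control replicate 1 (0.19). The other genes with lower values were Iigp1, Tsc22d3, Psme2b, Txnip, Egfl7 and Sema4a, with log2 differences from −3.13 to −1.21.

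**Figure D4:**
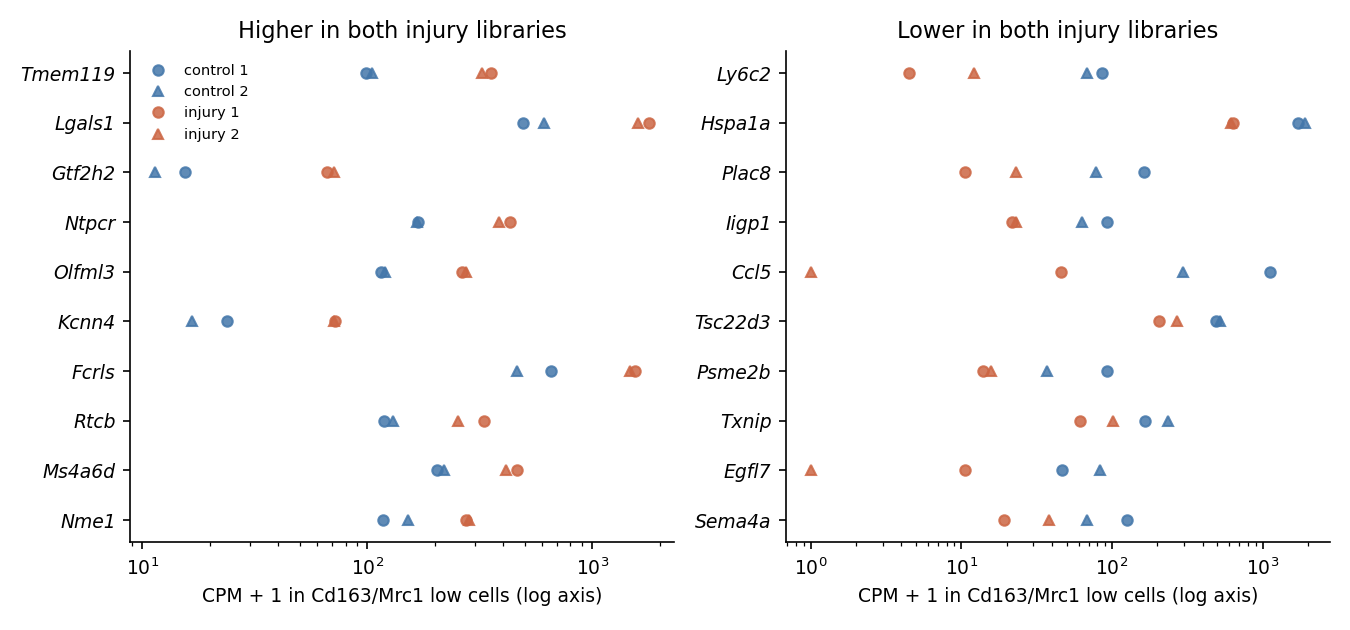
CPM + 1 (log axis) of the 10 genes with the smallest p in each direction among genes whose control and injury libraries did not overlap, in Cd163/Mrc1 low cells. Blue, control; orange, injury; circles, replicate 1; triangles, replicate 2; no gene passed the adjusted threshold in the edgeR comparison with its filter on low counts and no block, and injury replicate 2 is at 0 CPM for Ccl5 and Egfl7.

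Genes of antigen presentation had lower values after injury. All 8 tested MHC class II genes had a log2 difference below 0 and in 7 both injury libraries lay below both control libraries (median −1.06). H2-Eb1 was at 12858 and 9391 CPM in control and 5898 and 5543 CPM in injury (−1.07 ± 0.34, adjusted p = 0.729). H2-Aa was at 16949 and 10962 CPM against 8383 and 6721 CPM, and H2-Ab1 at 20417 and 11765 CPM against 8955 and 7336 CPM. The 10 MHC class I genes were all below 0 as well (median −0.66, 6 without overlap), with H2-D1 at 3812 and 1892 CPM against 1478 and 1593 CPM. Of 16 tested interferon response genes 15 had a log2 difference below 0 (median −0.98, 6 without overlap), but the injury libraries differed. The 18-gene list summed to 4360 and 4084 CPM in control, 2630 in injury replicate 1 and 4124 in injury replicate 2. Irf7, a regulator of interferon genes, was at 137 and 119 CPM in control and 22.6 and 122 CPM in injury. Isg15, a ubiquitin-like protein, was at 203 and 150.3 CPM against 62.5 and 104 CPM, and Cxcl10 at 308 and 156 CPM against 111 and 104 CPM.

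Resident macrophage genes, low in members by the limit, had lower values still after injury in 12 of 14 tested genes (median −0.43, 5 without overlap). Mgl2, a lectin, was at 1179 and 653 CPM in control and 278 and 485 CPM in injury, and Igf1 at 149 and 114 CPM against 72.9 and 63.0 CPM. Apoe was at 31877 and 34543 CPM against 25841 and 19993 CPM, and Lyz2 at 15437 and 12439 CPM against 10359 and 8222 CPM. Tgfb1 stood apart in a single library, with 197 and 166 CPM in control, 19.97 in injury replicate 1 and 170.4 in injury replicate 2, and the Cd163/Mrc1 cells showed the same dip at 16.1 CPM. Medians of the remaining lists lay between −0.44 (chemokines) and 0.22 (S phase genes), apart from lists with under 8 tested genes.

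Whether the injury difference depended on the gate was tested as an interaction over the 8 summed profiles. Of 4291 genes, 4 had a higher (0.0932%) and 3 a lower (0.0699%) injury effect in members than in Cd163/Mrc1 cells. Cd74, H2-Ab1 and H2-Aa were among the 4. The mean of Cd74 was 49147 CPM in control and 25765 CPM in injury members, a ratio of 0.524, and 40873 and 9272 CPM in Cd163/Mrc1 cells, a ratio of 0.227. The injury effect differed by 1.35 ± 0.19 on the log2 scale (adjusted p = 0.00787). The mean of Cd74 was lower after injury in both gates and less so in members. Its injury difference by itself was not called in members and was not tested in Cd163/Mrc1 cells.

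H2-Ab1 differed by 1.43 ± 0.25 (adjusted p = 0.0255) and H2-Aa by 1.26 ± 0.23 (adjusted p = 0.0307), and all 6 tested class II genes were above 0 with a median of 1.21 against −0.02 over all genes. H2-Eb1 had 1.16 (adjusted p = 0.0579), H2-DMa 0.62 and H2-DMb1 0.52. H2-Eb1 passed under 7 of 12 alternatives, among them thinned cells (adjusted p = 0.005) and leaving out each gene's highest cell (adjusted p = 0.00282). The direction of these 6 genes held under all 12 alternatives, but the calls did not. DESeq2 gave adjusted p of 0.0551, 0.0863 and 0.208 for Cd74, H2-Ab1 and H2-Aa, dropping control replicate 2 gave 0.0534, 0.184 and 0.187, and leaving out cells with 5 or more UMIs of the lists of other cell types gave 0.144, 0.192 and 0.259. The log2 differences stayed between 1.11 and 1.47 in these 3 alternatives. Over all 12 they ran from 0.965 to 1.70 for Cd74, 0.93 to 1.93 for H2-Ab1 and 0.78 to 1.73 for H2-Aa. The lowest of each was without injury replicate 2 and the highest without injury replicate 1. H2-Aa also failed without injury replicate 2 (adjusted p = 0.0886), and H2-Ab1 and H2-Aa with cells of 0 Fabp7 UMIs only (0.0724 and 0.0828).

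**Figure D5:**
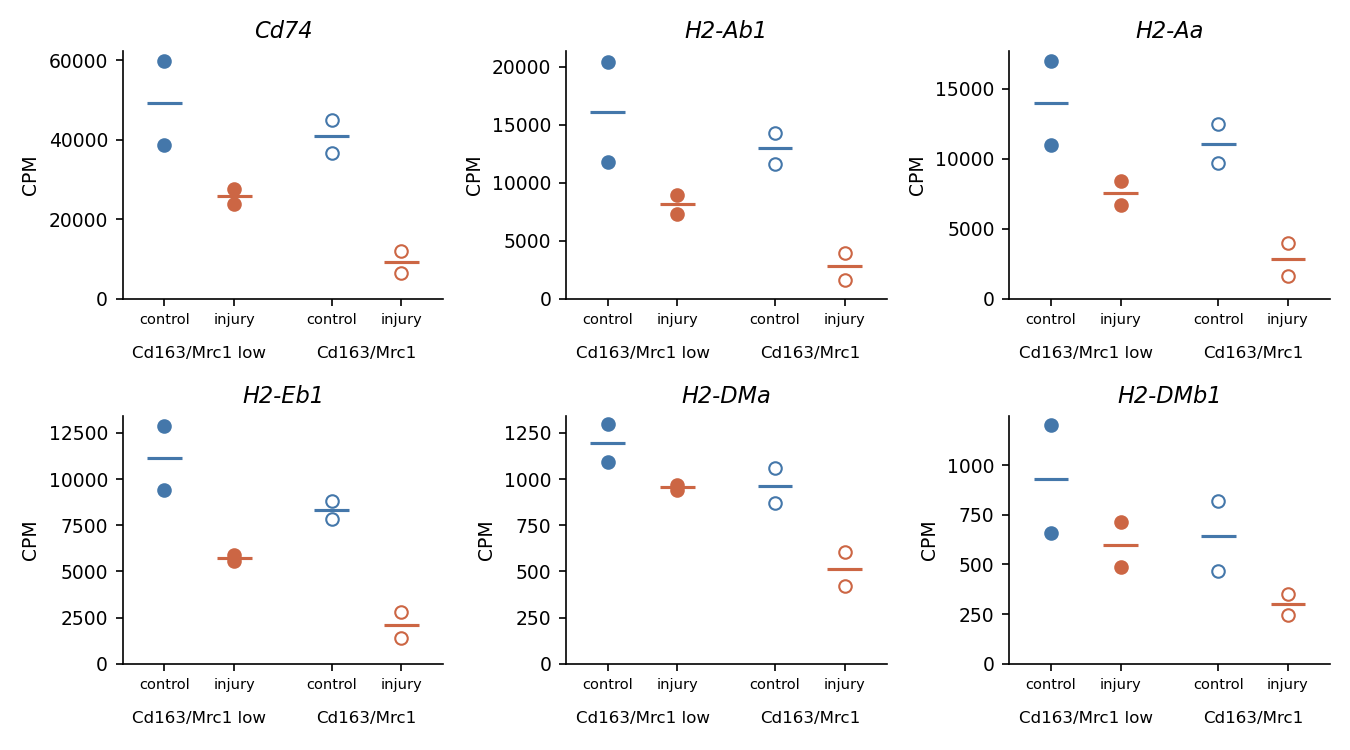
CPM of 6 MHC class II genes in Cd163/Mrc1 low (filled) and Cd163/Mrc1 cells (open) of control (blue) and injury (orange) libraries. Each point is 1 library and each bar the mean of 2; in Cd74 the mean goes from 49147 to 25765 CPM in the former and from 40873 to 9272 CPM in the latter.

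The other 4 genes with a called interaction were Cxcl12, Lgals3, Mbp and Igfbp7. Cxcl12, a chemokine of stromal cells, was at 184, 46.6, 6.95 and 40.8 CPM in members, and 1 cell of control replicate 1 held 92.1% of its UMIs there. Without that library its interaction went from −5.71 to −8.28 and no longer passed (adjusted p = 0.251). Lgals3 (−2.45) rested on control replicate 1, without which the difference was −0.99 (adjusted p = 0.764). Mbp, a myelin protein (1.95), was at 45.5, 347, 59.9 and 497 CPM in members, high in both libraries numbered 2, and its adjusted p was 0.999 without the cells that carried lists of other cell types. Igfbp7 (−2.38), a protein of vessel and stromal cells, was at 101, 524, 35.6 and 237 CPM, and its adjusted p was 0.264 without control replicate 2. Among cells with 0 UMIs of Ccr2, Ly6c2 and Cd209a its interaction was −0.44 (adjusted p = 0.994).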

How the data were processed

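DRG cells were captured with 10x Chromium and, per the labels, processed by the authors with Cell Ranger on mm10 and analysed in Partek. The deposited values are UMI counts per gene and barcode, not normalized, and the study's limit on reads per cell was applied here to UMIs. Members, gene lists and tests were chosen with earlier results of these data known, and the lists are described by counts and medians only.

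Counts were summed per library and gate, scaled to CPM, and tested in edgeR 4.0.16 (R 4.3.3; TMM, quasi-likelihood test, Benjamini-Hochberg) after its filter on low counts, with the 16 genes of the rule left out of testing. The injury comparison used the 4 member profiles without covariates. The comparison of gates used 8 profiles with library as a block, and the interaction used the same profiles. The steps were tested on simulated data. DESeq2 1.42.0, other filters, thinned cells, other limits, and leaving out each library were alternatives. Shares were compared by an exact permutation test (scipy 1.17.1, two-sided).

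Named genes were those of the rule, the 12 largest called gate differences a direction (average log2 CPM of 5 or more, same direction in 4 libraries), the 10 smallest injury p a direction (same average, libraries not overlapping), the 5 smallest interaction p, the 4 most abundant and all called members of each of 30 lists, and the 10 most abundant genes; a few further list members were chosen after their values were seen. No doublet caller was run. Depth was 192946 to 1151935 UMIs per member profile, which limits low genes most in the replicates numbered 2. P-values of the injury comparison and of the shares measure the spread between these libraries. Those of the gate and interaction tests, with library as a block, measure how the difference between gates varied from library to library. Intervals cover counting error only. Sirpb1c, Bcl2a1d, Psme2b and Hspa1a have near-identical relatives, so their counts are uncertain. Single values of a few list members are not reported here.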

Additional observations from a re-analysis of the deposited data

Results flagged for a closer look

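The injury difference (log2, injury over control) differed between Cd163/Mrc1 low and Cd163/Mrc1 cells by an interaction test in edgeR for 7 genes. It was higher in members for Cd74 by 1.35, for H2-Ab1 by 1.43, for H2-Aa by 1.26 and for Mbp by 1.95. It was lower in members for Cxcl12 (−5.71), Lgals3 (−2.45) and Igfbp7 (−2.38). None of the 7 passed with DESeq2. No group held the 4 or more samples needed to look for a single library far from the rest.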

How the results depend on the processing

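With 2 libraries a group, the counts of the injury comparison moved with the libraries: leaving out each library in turn gave 0 to 35 genes higher and 0 to 107 lower, against 0 and 0. The same gave 80 to 163 higher and 64 to 130 lower genes between gates (without injury replicate 1 the lowest), and 0 to 12 higher and 2 to 18 lower genes in the interaction (most without control replicate 1; 0 higher without control replicate 2, 7 and 8 without injury replicate 1, 15 lower without injury replicate 2). A lone library in such a fit is assumed to vary like the other group.

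Injury counts were 13 higher and 46 lower with no filter on low counts, and DESeq2 called 2 lower. Counts between gates (193 and 149) were 95 and 77 with DESeq2, 74 and 69 with cells thinned to 1000 UMIs, 3 and 11 without library as a block, and 8 and 3 with the study's threshold of a log2 fold change of 2 as well. Interaction counts (4 and 3) were 0 and 0 with DESeq2, 24 lower with no filter, 0 lower with thinned cells, 2 higher with cells of 0 Fabp7 UMIs, and 0 higher with the study's threshold. Restricting both gates to cells with 0 UMIs of Ccr2, Ly6c2 and Cd209a, an alternative chosen after seeing the data like the next, gave 38 and 33 gate calls. Leaving out cells with other cell types' lists gave 0 and 1 interaction calls. The causes were not tested.

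The study speaks of biologically independent experiments and of batches of pooled mice, without saying whether a number joins libraries of both conditions. The deviations of same-numbered libraries from their group means correlated at 0.283 across genes, and those of differently numbered libraries at −0.283. With 2 libraries a group the deviations mirror each other, so this is 1 value. It cannot decide whether the number marks a shared batch. With the number as a replicate block the injury comparison called 9 genes higher and 18 lower.

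The difference in the share of all cells reversed to −0.00157 percentage points with cells of 0 Fabp7 UMIs only and to −0.349 without Ccr2, Ly6c2 and Cd209a cells, was 4.86 with gates set after thinning, and ranged from −2.51 to 3.84 without 1 library. Among single genes, the injury difference of Il1b ranged from −1.61 to 1.72 and that of Fos from −1.13 to 0.19 without 1 library. The gate difference reversed for Apod (−0.22) and Dcn (−0.062) without cells of other types' lists, for Apoe (0.017) without Ccr2, Ly6c2 and Cd209a cells, and for Mbp (−0.43) with the stricter limit on Cd163, Mrc1 and Lyve1 and without 1 library (−0.10 to 1.03). Of all other values of named genes between gates, 778 kept direction and side of the threshold, 107 lost the call and 5 gained it.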
